A study of Homo sapiens with 7 samples.

Results

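The clustered protocadherin locus on chromosome 5 (band 5q31) was described by its MYCN binding sites in Kelly cells. The members are the summits of the MYCN peak list that lie on chromosome 5 from 140155001 to 140900000 (hg19), a window of 745 kb that holds the alpha, beta and gamma protocadherin clusters. A summit is the position of locally highest signal inside a called interval. The window held 24 of the 64657 summits of the list, in 18 intervals. The rule used position alone and neither strength nor spacing, but it was set with earlier results of these data known.

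MYCN binding was measured by chromatin immunoprecipitation with a MYCN antibody followed by sequencing (ChIP-seq), against input chromatin sequenced without an antibody. Kelly is an established human neuroblastoma line with amplified MYCN and an activating ALK mutation. All values below are from TAE684-sensitive Kelly cells kept for 48 h in the vehicle DMSO, from 2 MYCN ChIP samples and 1 input sample that share 1 peak list. The resistant cells, which received the ALK inhibitor TAE684 at 1 µM for 48 h, have a list whose 24 rows in the window are the same as those of the sensitive list, as are all 64657 rows, and 64657 of its peaks carry the sensitive name. No comparison between the states was therefore made. With 1 list there is no replicate error, so differences below are descriptions. The intervals given with them cover counting error only and treat summits as independent, which neighbouring summits are not.

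Clustered protocadherins are cell-surface adhesion proteins that give single neurons a molecular identity. In the alpha and gamma clusters, many variable exons stand in a row, each with its own promoter, and are spliced to constant exons shared by the cluster. Beta genes are single-exon genes without shared constant exons. A neuron uses only a few of these promoters at a time. The choice depends on DNA methylation, on the insulator protein CTCF, which binds a conserved promoter element, and on distal enhancers that lie beyond the alpha constant exons and beyond the gamma cluster. The C-type genes at the ends of the alpha and gamma clusters are regulated differently and are expressed more widely. MYCN binds DNA with its partner MAX and prefers the E-box CACGTG.

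The window was divided at round positions known from the textbook map of the locus, since no hg19 gene annotation was used here. The alpha segment (140155001 to 140410000) stands for 15 genes, PCDHA1 to PCDHA13, PCDHAC1 and PCDHAC2. The beta segment (140410001 to 140650000) stands for 16 genes, PCDHB1 to PCDHB16. The stretch between beta and gamma (140650001 to 140705000) holds SLC25A2, a mitochondrial ornithine carrier gene, and TAF7, which encodes a subunit of the general transcription factor TFIID. The gamma segment (140705001 to 140893000) stands for 22 genes of the PCDHGA, PCDHGB and PCDHGC types. A tail of 7 kb (140893001 to 140900000) follows, where the gamma cluster ends and the neighbouring gene DIAPH1, which encodes a formin, comes next. In the RefSeq gene table of another build, GRCh38.p14, 55 of these 55 genes were found, and by position they formed 4 unbroken runs, alpha first, then beta, then the genes between, then gamma. No summit was placed on a gene or an exon.

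Promoters of the alpha cluster are shown because they are the ones of the locus that carry the CACGTG letters. RefSeq promoters (GRCh38.p14, 250 bases before to 50 after each gene's start) were found for 47 of the 53 clustered genes, all but PCDHA3, PCDHA13, PCDHB6, PCDHB11, PCDHGA12 and PCDHGC5. CACGTG, which reads the same on both strands, was present in 3 of 13 alpha promoters, 0 of 14 beta promoters and 0 of 25 gamma promoters, where some gamma genes have more than 1. Over the 3 clusters together 3 of 52 promoters held it, or 5.77%, against 7.26% of all 35116 promoters of the table. The 3 promoters were those of the neighbouring genes PCDHA9, PCDHA10 and PCDHA11. A further run of letters, TGTCGCT (either strand), was searched after the sequences had been looked at. It was found in 10 of 13 alpha promoters, 1 of 14 beta promoters and 3 of 25 gamma promoters, against 1.76% of all promoters. The 250 bases before the start are printed 5′ to 3′ on the plus strand for these 3 genes and for PCDHA1, an alpha promoter without CACGTG. Capitals mark CACGTG and TGTCGCT.
PCDHA1 (GRCh38.p14 chr5:140785890-140786139): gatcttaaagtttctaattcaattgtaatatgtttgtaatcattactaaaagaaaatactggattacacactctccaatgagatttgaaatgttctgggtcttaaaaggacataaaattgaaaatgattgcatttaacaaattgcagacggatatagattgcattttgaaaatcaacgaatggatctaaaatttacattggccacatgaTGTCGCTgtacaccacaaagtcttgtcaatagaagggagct
PCDHA9 (GRCh38.p14 chr5:140848132-140848381): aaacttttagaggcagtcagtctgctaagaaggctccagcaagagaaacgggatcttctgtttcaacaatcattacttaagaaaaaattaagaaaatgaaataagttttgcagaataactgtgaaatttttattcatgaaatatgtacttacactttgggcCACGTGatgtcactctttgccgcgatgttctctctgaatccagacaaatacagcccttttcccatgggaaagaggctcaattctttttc
PCDHA10 (GRCh38.p14 chr5:140855647-140855896): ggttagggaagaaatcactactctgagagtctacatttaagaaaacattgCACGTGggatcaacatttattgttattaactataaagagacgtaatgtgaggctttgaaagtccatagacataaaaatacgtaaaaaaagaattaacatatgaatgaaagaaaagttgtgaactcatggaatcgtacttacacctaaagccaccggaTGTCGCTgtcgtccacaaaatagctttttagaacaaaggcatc
PCDHA11 (GRCh38.p14 chr5:140868707-140868956): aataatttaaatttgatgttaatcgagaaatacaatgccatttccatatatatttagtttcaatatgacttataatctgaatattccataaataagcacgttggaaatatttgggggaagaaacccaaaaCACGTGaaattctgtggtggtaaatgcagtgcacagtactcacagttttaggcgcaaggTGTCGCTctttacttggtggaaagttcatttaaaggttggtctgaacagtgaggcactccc

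In these sequences TGTCGCT began 41 bases before the start in PCDHA1, 43 in PCDHA10 and 61 in PCDHA11. CACGTG began 200 bases before the start in PCDHA10 and 120 in PCDHA11, apart from TGTCGCT. In PCDHA9 it began 89 bases before the start, and the letters TGTCACT began 82 bases before it, so both lie side by side. CpG dinucleotides were sparse in the locus, with a median of 7 per 300-base promoter in alpha, 7.5 in beta and 10.0 in gamma, against 14 over all promoters. The alpha promoter richest in CpG was that of the C-type gene PCDHAC1, with 27. TAF7, in the stretch between beta and gamma, also had 27. These letters describe the reference sequence only. The coordinates printed with them are on GRCh38.p14 and cannot be set beside the hg19 positions of the summits.

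MYCN sites in the window were fewer than its genes. The 3 clusters differed in count, but their densities did not differ beyond counting error. The alpha segment held 4 summits in 3 intervals for its 15 genes, the beta segment 8 summits in 7 intervals for 16 genes, and the gamma segment 6 summits in 6 intervals for 22 genes. The remaining 6 summits lay in the stretch between beta and gamma (2 summits, 1 interval) and in the tail (4 summits, 1 interval). The 3 clusters together held 16 intervals for 53 genes.

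Summit density was 15.7 per Mb in alpha (95% CI 4.27 to 40.2), 33.3 in beta (14.4 to 65.7) and 31.9 in gamma (11.7 to 69.5), by exact Poisson intervals. The beta density was 2.12 times the alpha density (95% CI 0.569 to 9.64) and the gamma density 2.03 times (0.482 to 9.80), while gamma to beta was 0.957 (0.274 to 3.15). None of these differences exceeded its counting error at this number of sites. The beta count includes a group of 3 intervals at the start of the segment, which by the textbook map lies before the first beta genes. Without this group beta held 5 summits, a count chosen after seeing the data. The order of alpha and beta therefore depends on where the border is set. On average 85.0 kb of the alpha segment, 34.3 kb of the beta segment and 31.3 kb of the gamma segment came with 1 interval.

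**Figure D1:**
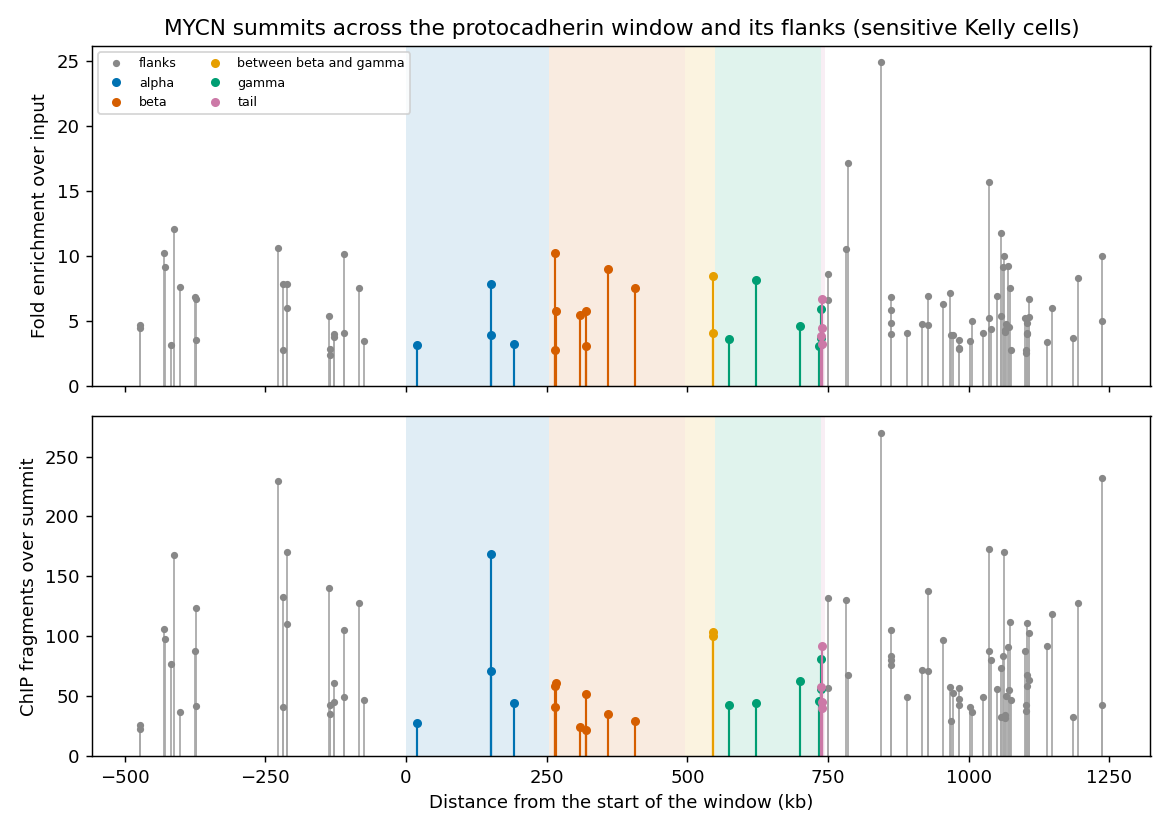
Each vertical line is 1 summit, placed by its distance from the start of the window (x axis, kb), with the authors' fold enrichment over input in the upper panel and the recovered number of ChIP fragments in the lower one. Colours and shading mark the segments and grey the flanks of 500 kb on each side. Summits of the window stay at or below a fold of 10.2, while the highest summit of the right flank reaches 24.9.

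The alpha segment opened with a weak site and had its main site much further in. The first interval of the window, from 140174638 to 140174933, had its summit at 140174876 with a fold enrichment of 3.16 over input. It was covered by 28 ChIP fragments over a local background of 5 input fragments, numbers recovered from the deposited fold and p-value. The background is a level in units of input fragments and not a count, so it need not be whole. The fold is not the plain ratio of fragments to background. ChIP fragments are first scaled by 0.641 to the input depth, and 1 is added to both numbers. The next 131 kb held no interval. The interval from 140305831 to 140306562 was the widest of the segment, 732 bp, and held a summit of fold 3.88 at 140305921 (71 fragments) and, 315 bp on, one of fold 7.81 at 140306236. That second summit had 169 ChIP fragments over a background of 13 and a −log10 q of 56.8, the highest fragment number and the highest −log10 q of the 24. The last alpha interval, from 140345834 to 140346355, had a single summit at 140346175 with a fold of 3.25 and 44 fragments over a background of 8. Among the 4 alpha summits, 1 therefore stood out and the other 3 lay between 3.16 and 3.88, at percentiles 11.2 to 24.4 of fold in the whole list.

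The beta segment began with a tight group of 3 intervals. They lay from 140419746 to 140420993, a span of 1248 bp, with gaps of 321 and 147 bp between them. Their summits had folds of 2.73 at 140419834, 10.2 at 140420462 and 5.73 at 140420846. The middle one was the highest fold of the window and the only one of at least 10, that is 1 of 24 summits or 4.17% (exact binomial 95% CI 0.105 to 21.1), against 12.0% of all summits of the list. It had 59 ChIP fragments, fewer than the 61 of its right neighbour, over a background of 2.8 against 6. The group lies where the alpha cluster has ended and before the first beta genes by the textbook map. Whether it falls in the enhancer known downstream of the alpha constant exons was not tested.

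The other 4 beta intervals were 145 to 442 bp wide and stood 9.84 to 47.0 kb apart. The first of them, from 140464122 to 140464266, was the narrowest interval of the window, with a fold of 5.46 at 140464197 and only 24 fragments. The second, from 140474103 to 140474544, was the widest of the segment and held summits of fold 5.73 at 140474298 (52 fragments) and 3.02 at 140474523, whose 22 fragments were the fewest of the 24. The third and the fourth were single summits of fold 8.99 at 140514782 and 7.52 at 140561924, with 35 and 29 fragments. Both stood on the lowest background of the list, 1.61 input fragments, which is the genome-wide mean. Folds above 7 in this segment thus went with low input, at backgrounds of 1.61 to 2.8. The background is the denominator of the fold, so this is not particular to beta. In the whole list the median fold was 6.78 at a background under 3, 5.46 at 3 to under 7 and 4.81 at 7 or more. After the last beta interval 138 kb followed without a site, the longest gap of the window, which covers the remaining beta segment and most of the stretch before gamma.

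That gap ended at the only interval between the clusters, from 140699789 to 140700669, 881 bp wide. It held a summit of fold 8.46 at 140699913 and, 413 bp on, one of fold 4.07 at 140700326. They had 104 and 100 ChIP fragments, nearly the same number, over backgrounds of 7 and 15. The difference in fold between these neighbours therefore came with the background and not with the fragment number. By fragments they ranked behind only the strong alpha summit.

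Gamma sites were single-summit intervals, 6 of 6. The first 4 were spread along the segment, with folds of 3.57 at 140729653, 8.17 at 140777483, 4.60 at 140855415 and 3.05 at 140888548. The strongest of them, from 140777380 to 140777587, had 44 fragments over a background of 2.58, while the one of fold 3.57 had 43 over 7. The summit at 140855415, in the widest gamma interval (401 bp, from 140855277 to 140855677), had 63 fragments over 8. The remaining pair lay at the end of the segment, with folds of 3.69 at 140892142 (56 fragments) and 5.88 at 140892813. The latter had 81 fragments, the most of any gamma summit.

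The end of the gamma cluster held a second tight group, which ran on into the tail. Its 3 intervals lay from 140892067 to 140894258, a span of 2192 bp, with gaps of 194 and 269 bp. The tail interval, from 140893260 to 140894258, was the widest of the window, 999 bp, and the only one with more than 2 summits. Its 4 summits had folds of 3.82 at 140893330, 3.22 at 140893533, 6.67 at 140893802 and 4.44 at 140894170, at spacings of 203, 269 and 368 bp. They had 58, 45, 92 and 40 ChIP fragments, so the third rose above the others by both measures. This group adjoins the end of the gamma cluster, where the constant exons lie by the textbook map.

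Both groups together held 9 of the 24 summits, or 37.5%, within 0.462% of the window. A group brings its summits in together, so 9 summits in 2 groups are not independent and no interval is given. In the whole list 9.38% of summits lay in groups of 3 or more intervals less than 1 kb apart. Outside such groups lay 15 of 24 summits in the window, 21 of 24 in the left flank and 48 of 52 in the right flank. The grouping rule was chosen after the positions were seen. The median fold was 4.44 inside the groups (n = 9, 2.73 to 10.2) and 4.60 outside (n = 15, 3.02 to 8.99), while the median fragment number was 58 inside and 44 outside.

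The median gap between neighbouring intervals was 39.3 kb over the 17 gaps of the window, against 17.6 kb over the list. It was 9.51 kb in the left flank (15 gaps) and 4.31 kb in the right flank (41 gaps). Inside the clusters the median was 85084 bp in alpha, 24994 bp in beta and 32726 bp in gamma. The spread was wide, since 4 gaps were under 1 kb (23.5%, against 16.5% in the list) and 2 were over 100 kb (11.8%, against 14.1%). Gaps under 1 kb made up 13.3% in the left flank and 24.4% in the right flank, so their share was not particular to the window. All 4 in the window lay in the 2 tight groups. The 4 longest gaps, of 138, 131, 77.7 and 73.4 kb, together made up 56.3% of the window. The shortest was 147 bp.

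The order of the 3 clusters by strength depended on the measure. By fold enrichment the median was 5.73 in beta (2.73 to 10.2), 4.15 in gamma (3.05 to 8.17) and 3.56 in alpha (3.16 to 7.81). By ChIP fragments the order was turned around, with a median of 57.5 in alpha (28 to 169), 51 in gamma (43 to 81) and 38 in beta (22 to 61). The local background moved with this, at a median of 9.5 input fragments in alpha, 8 in gamma and 3.4 in beta. The order by fold turned among summits of fold 5 or more, a cut on the ranked value itself. There the medians were 7.81 in alpha (1 summit), 7.03 in gamma (2) and 6.62 in beta (6). Beta stayed highest past a −log10 q of 5 (6.62, against 4.15 in gamma and 3.88 in alpha) and of 10 (7.52, 5.88 and 5.85). With each interval counted once it was also highest (5.73, 4.15 and 3.25). The ranges of the clusters overlapped in fold, in fragments and in background. Of the 5 summits highest by fold in the window and the 5 highest by fragments, 2 were shared, the strong alpha summit and the first of those between beta and gamma.

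**Figure D2:**
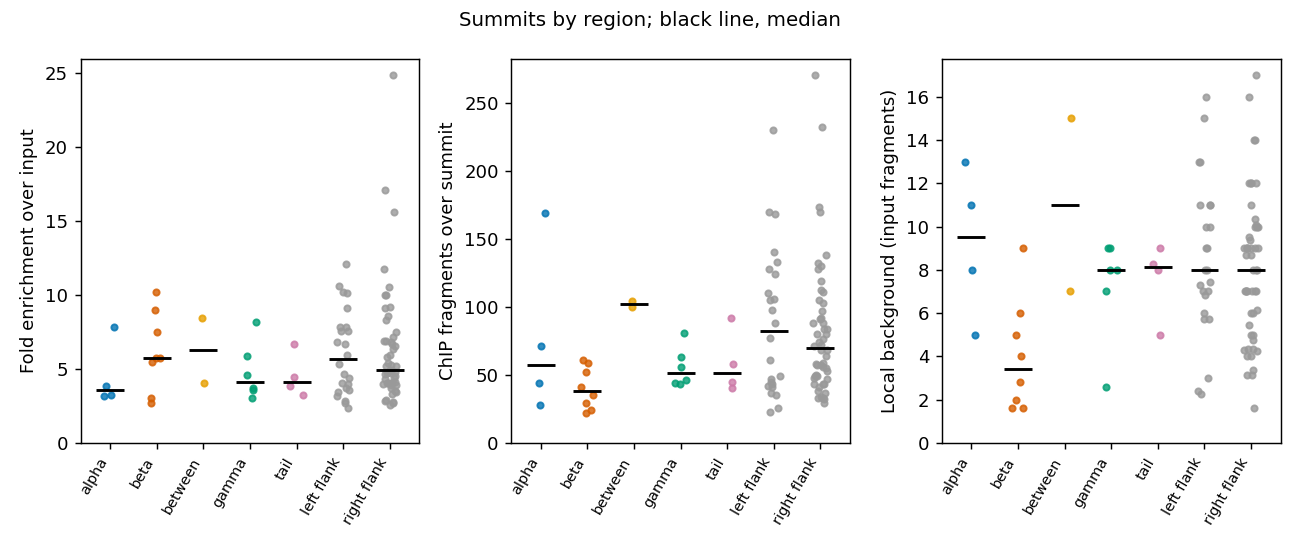
Each point is 1 summit, grouped by segment or flank (x axis), with fold enrichment, ChIP fragments and local background in input fragments on the y axes from left to right and black lines at the medians. Beta has the highest median fold of the 3 clusters (5.73) but the lowest medians of fragments (38) and background (3.4).

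Against the list as a whole the window's sites were of modest strength. The median fold was 4.52 (quartiles 3.49 and 6.88) against 5.35 for chromosomes 1 to 22 and X. A fold of at least 5 was reached by 11 of 24 summits, or 45.8%, against 55.8% of all summits, and a −log10 q of at least 10 by 13, or 54.2%, against 64.2%. These shares are near those of the list. The median fragment number was 49 against 63, and the median background 7.5 against 7.56.

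The picture differed by class of background. With a background under 3 input fragments, 5 summits of the window had a median fold of 8.17 (5.46 to 10.2), against 6.78 in the list. With 3 to under 7, the median was 4.44 (n = 5) against 5.46. With 7 or more, it was 3.85 (n = 14) against 4.81, and the median fragment number was 60.5 against 86. This last class has no upper limit. Its backgrounds reached 15 in the window and 125.6 in the list, so they were not alike. Both flanks together had median folds of 7.6 (n = 3), 6.91 (n = 21) and 4.76 (n = 52) in the classes from low to high background. The class limits were chosen after the values were seen.

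**Figure D3:**
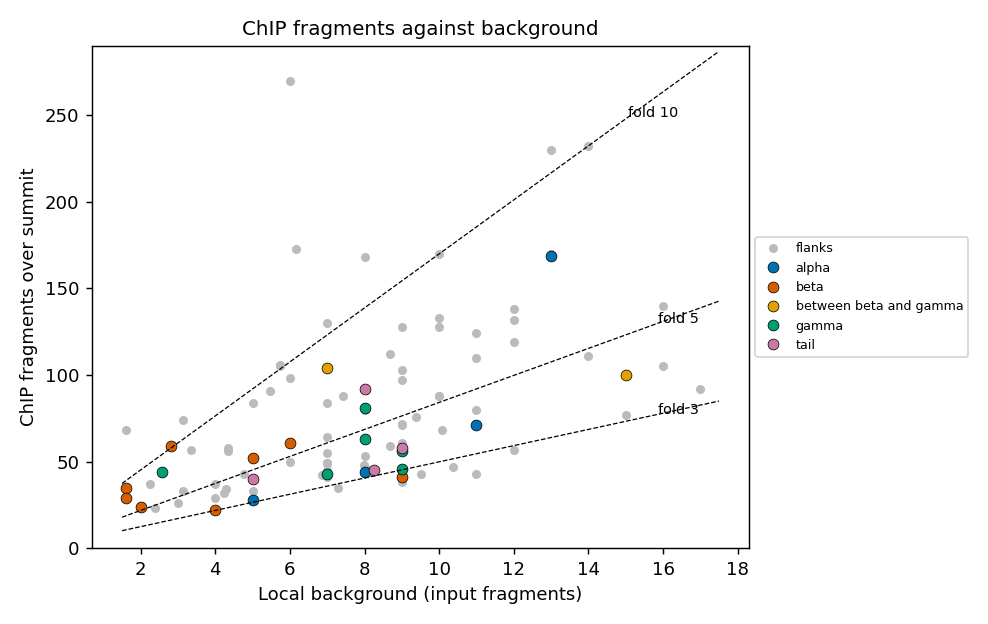
Each point is 1 summit, with its local background in input fragments on the x axis and its ChIP fragments on the y axis, coloured by segment, with the flanks in grey and dashed lines of equal fold at 3, 5 and 10. The strong alpha summit (169 fragments over 13) stands highest among the coloured points, while the 4 beta points at the left, with 24 to 59 fragments, reach folds of 5.46 to 10.2 on low background.

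Both flanks of 500 kb were denser in MYCN sites than the window, and their strongest sites were stronger. No clustered protocadherin gene lies in them by the textbook map. The left flank held 24 summits, or 48 per Mb (95% CI 30.7 to 71.4), and the right flank 52, or 104 per Mb (77.7 to 136), against 32.2 in the window (20.6 to 47.9). The density of the window was 0.671 times that of the left flank (95% CI 0.365 to 1.23) and 0.310 times that of the right flank (0.183 to 0.512). Against both together it was 0.424 (0.256 to 0.678). The difference from the left flank was therefore within counting error, and that from the right flank was not. Intervals covered 0.934% of the window, 1.62% of the left flank and 3.44% of the right flank.

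The window also had the lowest medians of strength. The median fold was 5.65 in the left flank, 4.95 in the right flank and 4.52 in the window, and the ranges overlapped. The ratio of the window's median fold to that of both flanks was 0.888, and it turned to 1.02 among summits past a −log10 q of 5. It was 0.972 past a −log10 q of 10, 0.992 at a fold of at least 5 and 0.934 with each interval counted once. With flanks of 250 kb it was 0.892 and with 1000 kb 0.86. Median fragment numbers were 82.5, 69.5 and 49. The background differed little, with a median of 8 in each flank and 7.5 in the window. The upper ends differed more. A fold of at least 10 was found at 4 of 24 summits on the left (16.7%, 95% CI 4.74 to 37.4) and 6 of 52 on the right (11.5%, 4.35 to 23.4), against 1 of 24 in the window, and these intervals overlapped. The highest fold was 12.1 at 139742933 on the left, with 168 fragments over 8, and 24.9 at 140998827 on the right, with 270 fragments over 6. By fragments the highest summits had 230 on the left, 270 on the right and 169 in the window.

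A long empty stretch preceded the window and a short one followed it. The last summit before it, at 140080038, had a fold of 3.46, and 94.5 kb without an interval separated it from the first alpha site. The first after it, at 140904569, had a fold of 6.59 with 132 fragments, and only 10.1 kb separated its interval from the tail interval.

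Among windows of the same length laid along chromosomes 1 to 22 and X, the locus was not poor in sites. Of 4061 windows, 77.1% held fewer than 24 summits, and the median window held 11 (quartiles 3 and 22). Its density was 1.51 times that of these chromosomes together (95% CI 0.969 to 2.25). Its median and highest fold ranked low among windows of a like count. Of 1048 windows with 16 to 36 summits, 9.06% had a lower median fold than 4.52 and 8.78% had a lower highest fold than 10.2. The median of their median folds was 5.55 (quartiles 5.0 and 6.08), and the median of their highest folds was 14.7. The median of their median backgrounds was 7, against 7.5 in the protocadherin window. Windows were laid from the first base of each chromosome, so unmappable sequence counts as empty.

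**Figure D4:**
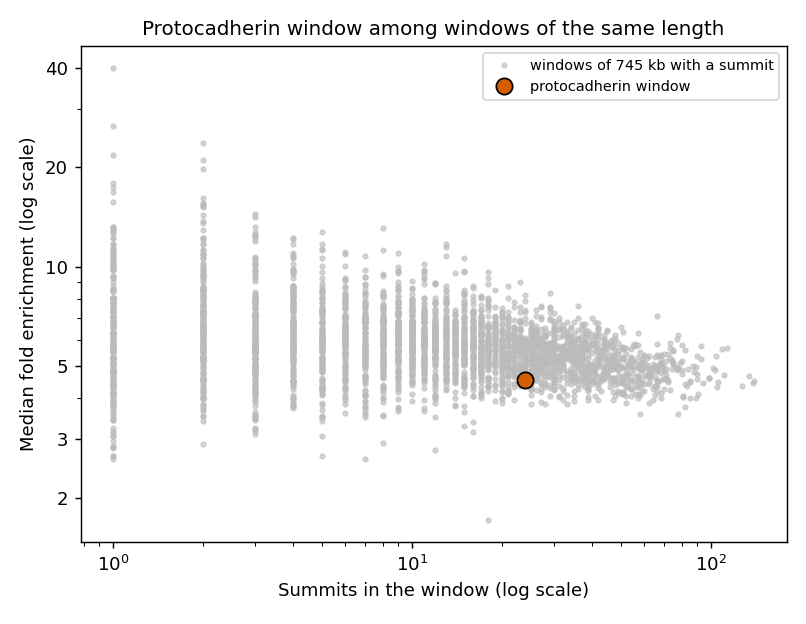
Each grey point is 1 window of 745 kb with at least 1 summit, with its number of summits (x axis, log scale) and its median fold enrichment (y axis, log scale). The orange point is the protocadherin window, with 24 summits and a median of 4.52, in the lower part of the points with a like count.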

How the data were processed

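The members, segments and comparisons were chosen with earlier results of these data known. Per the submitters' processing notes the build was hg19, and MACS2 2.1.1, deepTools 2.2.4, STAR 2.5.1b, Picard and SAMtools 1.3.1 are named without settings. For the pooling of both ChIP samples and for duplicates, no step is stated in those sources. The authors' fold is a ratio at the summit, which the values match as the scaled ChIP pileup plus 1 over the local background plus 1. The authors also deposited its −log10 p, its −log10 q and a score, which is the −log10 q times 10, rounded down. Positions count from 1.

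ChIP fragments and background were solved from fold and p by the relations of MACS2. A scale of 0.641 returned a whole fragment number within 0.0005 of −log10 p at all 64657 summits (the closer of 2 numbers at 24 of them). The procedure was also tested on data simulated from the same relations. That test checks the solving step only and cannot show that the deposited values follow these relations. By rule, each segment's 3 summits of highest fold, the summit with most fragments and the widest interval were named, with the shortest and longest gap and intervals of 3 or more summits. The report gives all 24 summits. Intervals are exact at 95%: binomial for shares, Poisson for densities and conditional binomial for density ratios. Alternatives were thresholds on q and fold, counts of intervals, segment borders, flank lengths and other windows. Python 3.11.15, numpy 2.4.6, pandas 2.3.3, scipy 1.17.1 and matplotlib 3.10.9 were used.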

Additional observations from a re-analysis of the deposited data

How the results depend on the processing

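No paired analysis was possible because the ChIP samples share 1 list, so leaving out a replicate was not possible either. Of the 24 summits, 13 passed a −log10 q threshold of 10 and 11 passed a fold threshold of 5. With these 2 thresholds alpha held 2 and 1 summits and gamma 3 and 2, the tail 1 and 1. Beta held 5 with the q threshold, and the stretch between beta and gamma 1 with the fold threshold. Counted by interval, that stretch and the tail held 1 each. Gamma held 10 with the tail joined to it, and beta 5 without the group at its start, both chosen after seeing the data. The density ratio of window to flanks, 0.424, ran from 0.292, with groups of 3 or more intervals left out of window and flanks alike (chosen after seeing the data), to 0.474 with flanks of 250 kb. The ratio of median fold, 0.888, turned to 1.02 among summits past a −log10 q of 5, and the cause was not tested. With the other thresholds, interval counts and flank lengths this ratio ran from 0.86 to 0.992. In fragments the ratio was 0.685. Of windows with at least 1 summit, 73.6% held fewer than the locus. Summits below the threshold of the list are not seen.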
